A study of Mus musculus with 8 samples.

Results

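De novo lipogenesis, the building of fatty acids from acetyl-CoA, was described here through 10 genes chosen by symbol for their textbook roles: Acly, Acaca, Acacb, Fasn, Elovl6, Scd1 and Scd2, which encode enzymes, and Srebf1, Mlxipl and Thrsp, which encode regulators. The choice was made with earlier results of these data known. All 10 were among the 19348 genes of the mouse RNA-seq tables, and all 10 passed the filter on low counts in both tissues. The data comprised 8 libraries of total RNA from male C57BL/6 mice aged 12 weeks and fasted for 16 h on a normal diet. Liver and epididymal white adipose tissue (eWAT, the fat pad along the epididymis) were sampled, with 2 libraries per tissue labelled Crtc1-/- (called KO-labelled below) and 2 labelled Crtc1+/+ (WT-labelled), and the series' design text calls the 2 of a group independent biological replicates. The Crtc1-/- line was made with CRISPR/Cas9 guides to exons 2 and 4, and the controls were littermates. The study describes the deficiency as one of the whole body, so a difference in 1 tissue need not arise in that tissue.

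In the cytosol, citrate is cleaved to acetyl-CoA, acetyl-CoA is carboxylated to malonyl-CoA, and fatty acid synthase joins these units into palmitate, which is then elongated and desaturated. SREBP-1c, which responds to insulin, and ChREBP, which responds to glucose metabolites, are the transcription factors known for switching these genes on after feeding, in liver and in fat. Fasting lowers the pathway, so these levels are those of a fasted state.

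Facts of the libraries bear on every result in eWAT. Crtc1 itself, on chromosome 8 (70382355 to 70439579, minus strand, GRCm38), was at 58.5 and 33.6 CPM (counts divided by the scaled size of the library) in KO-labelled eWAT, against 32.6 and 33.7 CPM in WT-labelled eWAT. In liver Crtc1 was at 22.1 and 18.0 CPM in the KO-labelled libraries and at 11.7 and 9.86 CPM in the WT-labelled ones. The log2 fold change of Crtc1 was 0.48 in eWAT (edgeR adjusted p = 0.396) and 0.89 in liver (adjusted p = 0.184). The gene-level count, which does not measure the targeted exons apart from the rest, was thus not lower in the KO-labelled libraries, and the genotypes are given below as labelled. Adipocyte markers (11 genes, led by Fabp4) took 4.15% and 1.98% of the counts in KO-labelled eWAT but 0.223% and 0.356% in WT-labelled eWAT, and none was at 0 in an eWAT library. Epididymis markers (15 genes, led by Gpx5) took 7.77% and 9.08% of the counts in WT-labelled eWAT and 0.00234% and 0.00117% in KO-labelled eWAT, where 6 and 4 of the 15, Defb15 and Spink12 among them, were at 0. Hepatocyte markers (13 genes, led by Alb) took 10.2% of the counts in KO-labelled eWAT replicate 2, against 0.112% in replicate 1 and 0.622% and 0.0742% in WT-labelled eWAT, so eWAT calls that end or arise without that library are given below. In liver the hepatocyte markers took between 19.0% and 23.3% of the counts. In bulk tissue, fewer cells of a type and less RNA per cell cannot be told apart.

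**Figure D1:**
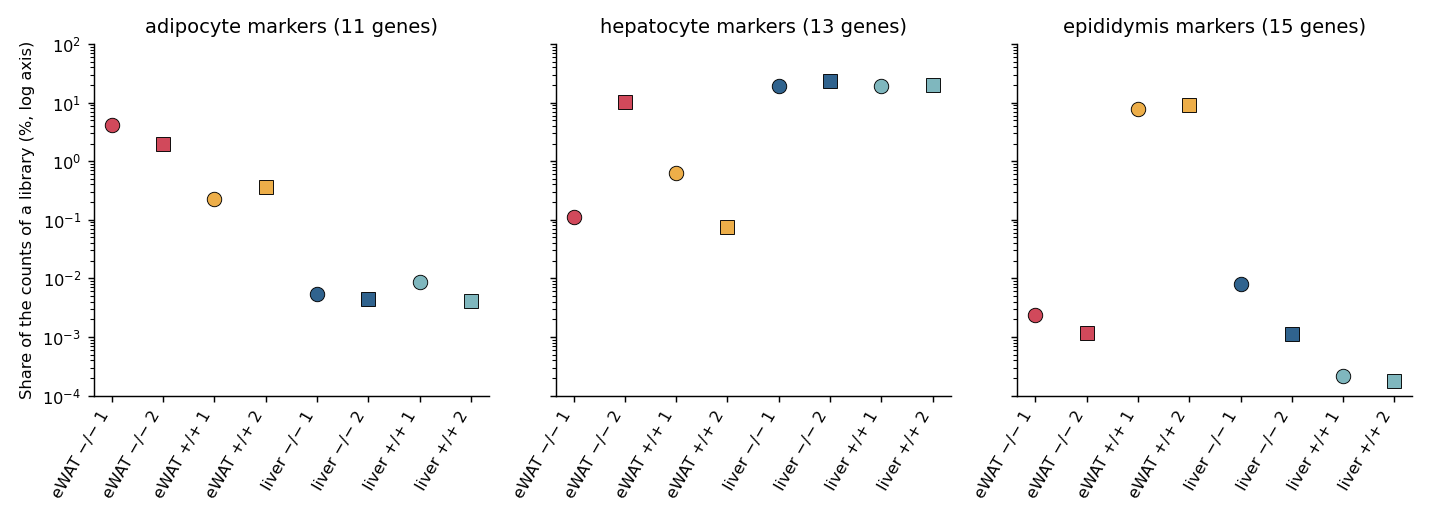
Share of all counts of a library (percent, log axis) taken by 11 adipocyte, 13 hepatocyte and 15 epididymis marker genes in the 8 libraries, 1 point each. The eWAT libraries labelled +/+ sit at 7.77% and 9.08% for epididymis markers, and eWAT labelled −/− replicate 2 sits at 10.2% for hepatocyte markers.

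Sequences just upstream of 3 of the genes are shown because in eWAT Acly was lower, Acacb higher and Fasn not called in the KO-labelled libraries. RefSeq promoter windows (GRCm38.p6) matched 8 of the 10 genes at 11 start sites, and the 250 bases before the start site of Acly, Acacb and Fasn are printed 5′ to 3′ with capitals marking the motif matches found. The RefSeq start site of Acacb lies inside the span that GENCODE gives the gene.
Acly, chr11:100528001-100528250, minus strand: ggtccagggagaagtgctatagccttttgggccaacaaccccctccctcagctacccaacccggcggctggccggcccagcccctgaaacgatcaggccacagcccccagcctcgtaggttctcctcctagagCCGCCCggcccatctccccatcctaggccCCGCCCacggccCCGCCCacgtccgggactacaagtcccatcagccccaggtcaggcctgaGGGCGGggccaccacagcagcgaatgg
Acacb, chr5:114165268-114165517, plus strand: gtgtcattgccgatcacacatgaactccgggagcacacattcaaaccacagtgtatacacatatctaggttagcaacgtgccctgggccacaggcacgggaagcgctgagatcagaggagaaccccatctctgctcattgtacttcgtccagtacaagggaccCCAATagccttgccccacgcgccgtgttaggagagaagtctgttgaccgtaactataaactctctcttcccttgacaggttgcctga
Fasn, chr11:120824548-120824797, minus strand: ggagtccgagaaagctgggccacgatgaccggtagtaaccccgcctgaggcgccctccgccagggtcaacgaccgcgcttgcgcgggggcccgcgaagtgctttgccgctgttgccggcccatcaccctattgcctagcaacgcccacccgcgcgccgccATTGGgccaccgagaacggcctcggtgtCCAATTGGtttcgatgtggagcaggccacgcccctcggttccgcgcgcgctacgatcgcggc

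The motifs searched, on both strands, were the full cyclic AMP response element TGACGTCA, its core TGACG (which lies within the full element), the E-box CACGTG, the sterol response element TCACNCCAC, the NF-Y box CCAAT and the GC box GGGCGG. Acly held 4 GC boxes, Acacb 1 CCAAT box and Fasn 3 CCAAT boxes, of which a pair on opposite strands overlap, and no other motif of the 6 was found in these 3 windows. Among the remaining windows, Mlxipl held the E-box at 1 start site and the sterol response element at its other. Of 32841 RefSeq promoters of the same length, 33.9% held CCAAT, 32.7% GGGCGG, 17.8% TGACG, 6.02% CACGTG, 1.55% TGACGTCA and 1.05% TCACNCCAC. A match is a description of letters and not of binding, which was not measured.

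In eWAT the lipogenic genes did not move as a block. Acacb was 13.6-fold higher in the KO-labelled libraries, while Acly, Elovl6 and Scd2 were 5.58-, 7.50- and 17.0-fold lower, and Fasn and Srebf1 differed by less than the spread between replicates. edgeR called these 4 of the 10 at the 0.05 level after adjustment (1 higher, 3 lower), and over all genes it called 12.2%, 6.65% higher and 5.54% lower. Without adjustment 8 of the 10 and 33.3% of all genes lay under 0.05, and the study's own threshold took the same number, 4, of the 10 and 15.9% of all genes. The median log2 fold change of the 10 was 0.67, against −0.05 over all genes. The 2 KO-labelled values lay wholly above or below the 2 WT-labelled ones for 8 of the 10, as they did for 66.6% of all genes tested.

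Acly encodes ATP citrate lyase, which makes cytosolic acetyl-CoA from citrate (chromosome 11, 100476353 to 100528000, minus strand, 28 exons). It was at 106 and 84.1 CPM in KO-labelled eWAT and at 367 and 696 CPM in WT-labelled eWAT. Both KO-labelled values lay below both others, with a log2 fold change of −2.48 (SE 0.455, edgeR adjusted p = 0.0353). Without KO-labelled eWAT replicate 2 the log2 fold change of Acly was −2.37 and the call was lost (adjusted p = 0.0522).

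The carboxylases differ in where their malonyl-CoA is used: Acaca encodes the cytosolic enzyme that feeds synthesis, and Acacb encodes the enzyme at the mitochondrial surface, whose malonyl-CoA restrains fatty acid import for oxidation. Acacb (chromosome 5, 114146535 to 114250761, plus strand) was at 342 and 435 CPM in KO-labelled eWAT and at 21.9 and 35.2 CPM in WT-labelled eWAT. The groups were far apart, with a log2 fold change of 3.77 (SE 0.412, edgeR adjusted p = 0.0173) that was 3.53 (adjusted p = 0.00936) without replicate 2. Acaca (chromosome 11, 84129672 to 84401651, plus strand) was at 179 and 150 CPM in KO-labelled eWAT and at 49.4 and 91.0 CPM in WT-labelled eWAT. Its values did not overlap between genotypes either, but the log2 fold change of 1.23 (SE 0.391, edgeR adjusted p = 0.104) missed the threshold, as it did without replicate 2 (1.30, adjusted p = 0.147).

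Fasn encodes fatty acid synthase, which carries out the chain-building step (chromosome 11, 120805846 to 120824547, minus strand, 43 exons). It was at 682 and 266 CPM in KO-labelled eWAT and at 395 and 406 CPM in WT-labelled eWAT. The 2 KO-labelled libraries lay on either side of the controls and differed from each other 2.56-fold, so the log2 fold change of 0.24 (95% confidence interval −1.12 to 1.61, edgeR adjusted p = 0.767) leaves room for more than a 2-fold difference either way. Its sign rested on 1 library, since the log2 fold change of Fasn was −0.58 without replicate 1 and 0.74 without replicate 2.

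Downstream of palmitate, Elovl6 encodes the elongase that makes stearate, and Scd1 and Scd2 encode stearoyl-CoA desaturases, which make oleate. Elovl6 (chromosome 3, 129532355 to 129638495, plus strand) was at 12.3 and 19.2 CPM in KO-labelled eWAT and at 83.3 and 153 CPM in WT-labelled eWAT. Its log2 fold change was −2.91 (SE 0.455, edgeR adjusted p = 0.0269), and −3.31 (adjusted p = 0.0249) without replicate 2.

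The desaturase genes stood on opposite sides of their controls. Scd1 was at 12400 and 3490 CPM in KO-labelled eWAT and at 286 and 793 CPM in WT-labelled eWAT. Scd2 was at 78.5 and 18.0 CPM in KO-labelled eWAT and at 643 and 995 CPM in WT-labelled eWAT. Neither gene overlapped between genotypes. The log2 fold change of Scd2 was −4.08 (SE 0.846, edgeR adjusted p = 0.0448). It was −3.43 without KO-labelled replicate 2 and −5.5 without KO-labelled replicate 1. The log2 fold change of Scd1, 3.88 (95% confidence interval 1.34 to 6.42, edgeR adjusted p = 0.066), was as large but missed the threshold, and its libraries differed 3.55-fold within the KO label and 2.77-fold within the WT label. Leaving out either KO-labelled library brought Scd1 past it, at 4.46 without replicate 2 and 2.70 without replicate 1. Such a fit leaves 1 KO-labelled library, so the spread within the KO label no longer enters.

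Scd1 and Scd2 lie near each other on chromosome 19 (44394455 to 44407879, minus strand, and 44293674 to 44306864, plus strand) and their coding sequences were 90.4% identical over 1068 bases, so a counting tool could in principle exchange their reads. Of the 50-base stretches of the Scd1 transcript, 3.03% occur in the Scd2 transcript, and the longest run that the coding sequences share is 147 bases. The 60-base coding window in which they differ most (24 differences, shown in capitals) is printed from the GENCODE transcripts to show how reads can be told apart, from coding base 79 to 138 of Scd1 and 88 to 147 of Scd2.
Scd1: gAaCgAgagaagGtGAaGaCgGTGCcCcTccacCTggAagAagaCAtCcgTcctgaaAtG
Scd2: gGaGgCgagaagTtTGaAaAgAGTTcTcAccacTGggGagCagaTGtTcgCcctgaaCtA

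Acaca and Acacb were 72.2% identical in their coding sequences and shared no 50-base stretch.

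None of the regulators was called. Srebf1, which encodes SREBP-1 (chromosome 11, 60199089 to 60222581, minus strand), was at 265 and 135 CPM in KO-labelled eWAT and at 203 and 234 CPM in WT-labelled eWAT. The groups overlapped, with a log2 fold change of −0.13 (95% confidence interval −1.21 to 0.95, edgeR adjusted p = 0.848) that became 0.24 without replicate 2. These gene counts do not separate the SREBP-1a and SREBP-1c transcripts. Mlxipl, which encodes ChREBP (chromosome 5, 135089890 to 135138382, plus strand), was at 38.1 and 58.9 CPM in KO-labelled eWAT and at 20.5 and 24.4 CPM in WT-labelled eWAT. Its log2 fold change was 1.11 (SE 0.353, edgeR adjusted p = 0.105) and was 0.72 (adjusted p = 0.311) without replicate 2, the library with the hepatocyte markers. Mlxipl was also more abundant in liver than in eWAT, and the part of those markers in its value was not tested.

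Thrsp encodes Spot 14, a small protein of lipogenic tissues that responds to thyroid hormone and carbohydrate (chromosome 7, 97412938 to 97417730, minus strand). It was at 296 and 212 CPM in KO-labelled eWAT and at 120 and 119 CPM in WT-labelled eWAT. Its groups did not overlap, and the log2 fold change of 1.09 (SE 0.317, edgeR adjusted p = 0.0866) missed the threshold, as did the 1.28 (adjusted p = 0.0501) without replicate 2.

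**Figure D2:**
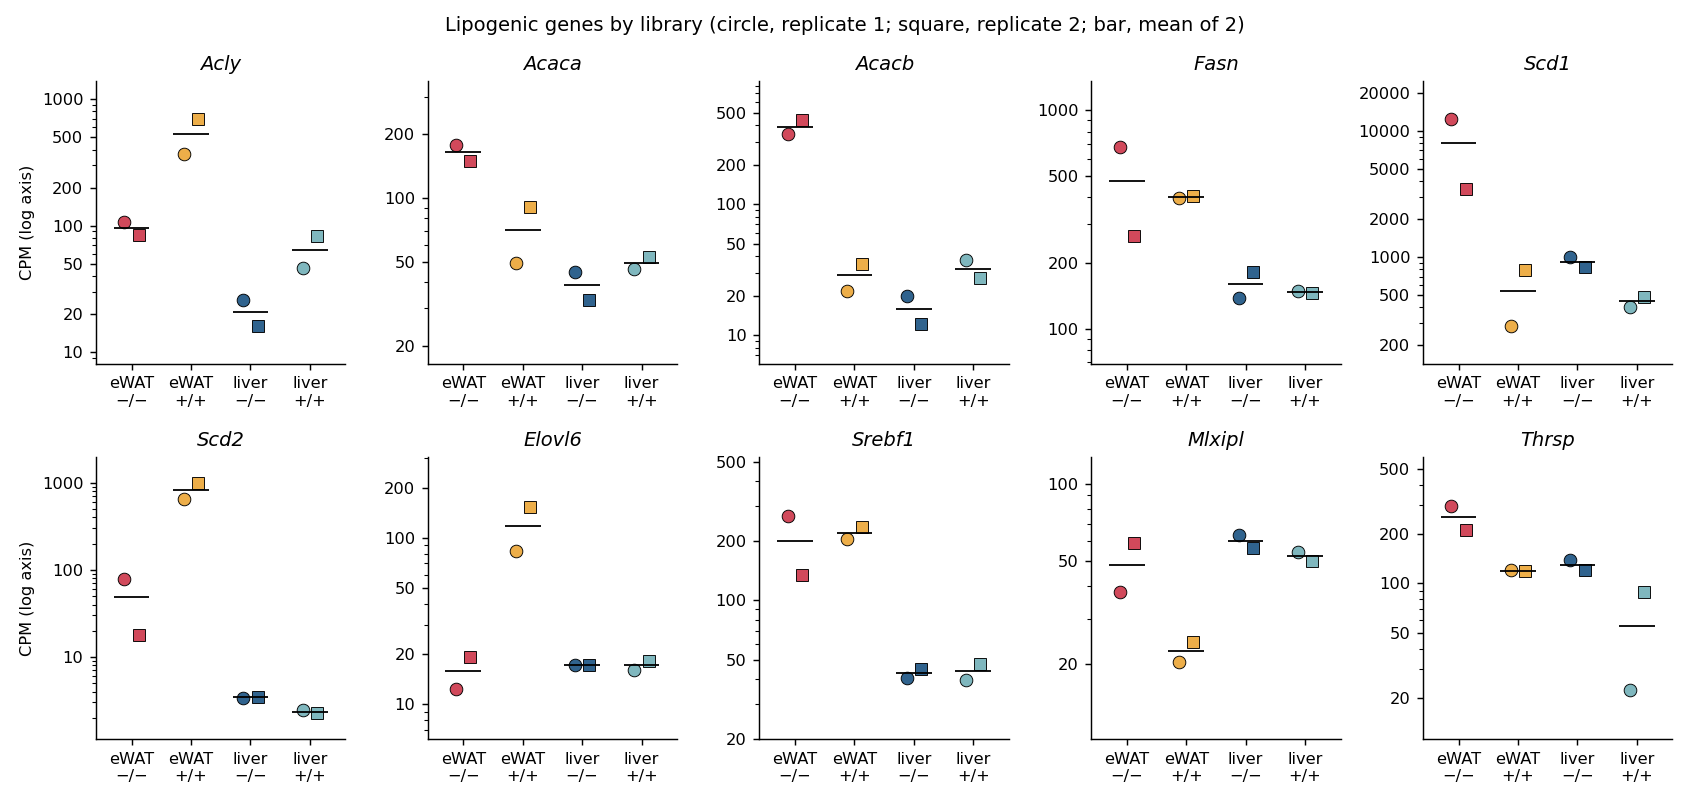
CPM (log axis, scaled by TMM within each tissue, so that eWAT and liver levels are not on 1 scale) of the 10 lipogenic genes in every library, with a bar at the mean of the 2 libraries of a group. In eWAT, Acacb sits at 342 and 435 CPM in the libraries labelled −/− and at 21.9 and 35.2 CPM in those labelled +/+, while Scd2 and Elovl6 lie lower in both libraries labelled −/−.

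These eWAT calls needed both control libraries. Leaving out either WT-labelled library left 0 of the 10 genes and 0 of all genes called by edgeR, although Acacb (3.49 and 4.17 without replicates 1 and 2) and Elovl6 (−3.24 and −2.38) kept their direction. The adipocyte markers were higher under the KO label (11 of 11 higher, 9 called, median log2 fold change 3.99), as were the endothelial markers (5 of 5 called, median 2.89) and the macrophage markers (7 of 7 higher, 3 called, median 2.07), and all 15 epididymis markers were lower and called, so tissue makeup and the genotype label cannot be told apart in eWAT. When counts were scaled on the summed adipocyte markers instead, the median of all genes moved to −3.72, Acacb stood at 0.25 and Scd1 at 0.17 (neither called), and the other 8 genes were called lower. Relative to that median, Acacb, Scd1, Acaca (−2.34), Mlxipl (−2.43) and Thrsp (−2.63) were higher, Acly (−6.06), Elovl6 (−6.37) and Scd2 (−7.92) lower, and Fasn (−3.58) and Srebf1 (−3.89) close to it. Such a scaling applies 1 factor to each library and largely keeps these places by construction, so they are not a further test.

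Within a library, where no scaling between libraries enters, the make-up of the lipogenic genes differed between the labels. These ratios are of FPKM, the deposited values that allow for transcript length, and they are given for each library with no test. The ratio of Scd1 to Scd2 was 178 and 220 in KO-labelled eWAT, 0.504 and 0.901 in WT-labelled eWAT, and between 185 and 333 in the 4 liver libraries. The WT-labelled eWAT libraries thus stood apart from the other 6 libraries in the form of desaturase they expressed. For Acaca to Acacb the ratio was 0.507 and 0.335 in KO-labelled eWAT and between 1.20 and 2.61 in the other 6 libraries, so that Acacb exceeded Acaca only in the KO-labelled eWAT libraries. For Srebf1 to Mlxipl the ratio was 5.72 and 1.87 in KO-labelled eWAT, 8.13 and 7.66 in WT-labelled eWAT, and between 0.520 and 0.761 in liver, the lower eWAT value being that of the library with the hepatocyte markers.

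**Figure D3:**
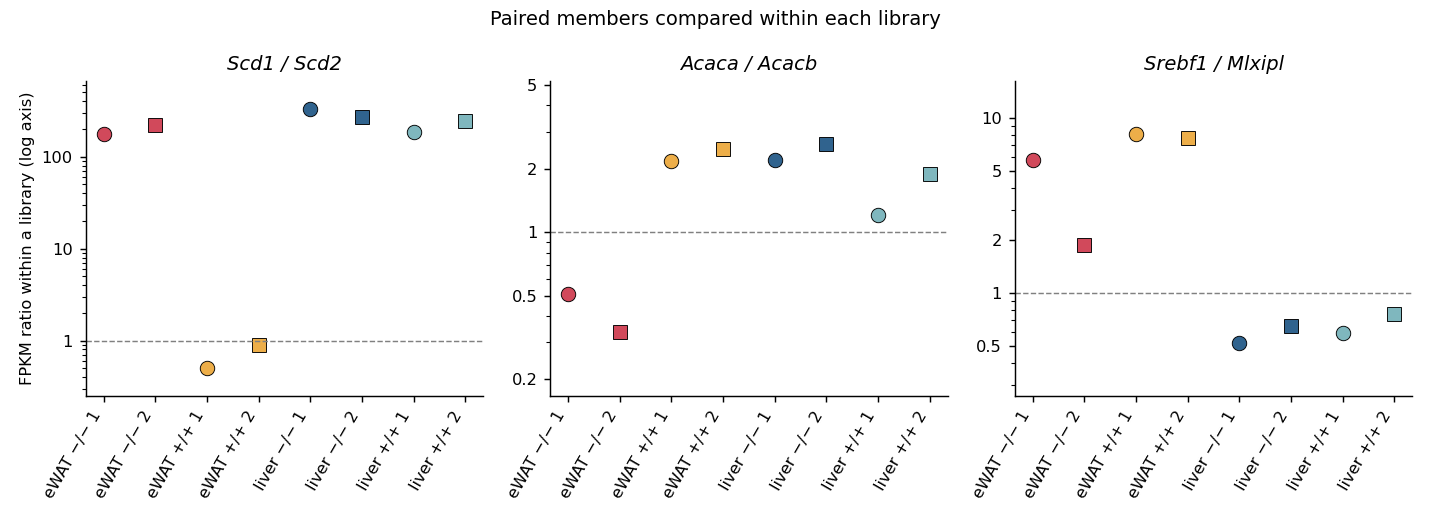
FPKM ratios within each of the 8 libraries (log axes, dashed line at 1) of Scd1 to Scd2, Acaca to Acacb and Srebf1 to Mlxipl, 1 point per library. The Scd1 to Scd2 ratio is 0.504 and 0.901 in eWAT labelled +/+ and at least 178 in the other 6 libraries, and Acaca to Acacb is under 1 only in eWAT labelled −/−.

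By level, Scd1 was the first of the 10 genes in FPKM in both KO-labelled eWAT libraries (2594.40 and 606.35 FPKM), where it made up 82.5% and 65.4% of their summed FPKM. In WT-labelled eWAT it made up 11.9% and 21.3% (69.24 and 185.25 FPKM), while Scd2 (137.46 and 205.58 FPKM) made up 23.7% in each. Thrsp was second in KO-labelled eWAT (304.49 and 178.45 FPKM), and Acly ranked 3 in WT-labelled eWAT (97.51 and 179.09 FPKM). The top places in WT-labelled eWAT changed between its libraries, with Thrsp, Scd2 and Acly leading in replicate 1 and Scd2, Scd1 and Acly in replicate 2. In liver Scd1 was between 38.3% and 50.9% of the sum. Set against the adipocyte markers of the same library, Scd1 stood at 44.1 and 23.9 FPKM per 1000 FPKM of marker in KO-labelled eWAT and at 23.8 and 38.1 in WT-labelled eWAT, so these groups overlapped. The groups of Acacb overlapped as well. Elovl6, set against the same markers, stood at 0.0355 and 0.106 in KO-labelled eWAT and at 5.59 and 5.93 in WT-labelled eWAT. Acly stood at 0.418 and 0.634 against 33.5 and 36.9, and Fasn at 1.16 and 0.875 against 15.7 and 9.34. These groups did not overlap, nor did those of Srebf1, Acaca, Scd2, Mlxipl and Thrsp, all lower under the KO label. The markers themselves were higher under that label. Scaling counts on them called 13713 of 15391 genes, so these separations do not single out the lipogenic genes.

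In liver no gene of the 10 passed an adjusted p under 0.05 by edgeR, and 0.0854% of all genes did (10 of 11707). At an unadjusted p under 0.05 the test gave 4 of the 10 (17.3% of all genes), DESeq2 called 2 (Acly and Scd1) and limma 0, the study's threshold took 3 (4.27% of all genes), and 7 of the 10 had no overlap between the genotypes, against 52.1% of all genes. The 4 were Acly and Acacb, which stood lower in the KO-labelled libraries, and Scd1 and Thrsp, which stood higher.

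Acly was at 25.7 and 16.2 CPM in KO-labelled liver and at 46.0 and 82.2 CPM in WT-labelled liver, a log2 difference of −1.61 (SE 0.350, edgeR adjusted p = 0.121). Acacb was at 19.8 and 12.1 CPM against 37.2 and 27.1 CPM, a log2 difference of −1.01 (SE 0.312, adjusted p = 0.188), in the direction opposite to eWAT. Scd1 was at 996 and 835 CPM against 405 and 486 CPM, a log2 difference of 1.04 (SE 0.258, adjusted p = 0.137). In each of these 3 genes the genotypes did not overlap. Without KO-labelled liver replicate 1, the log2 differences of Acly (−1.98), Acacb (−1.39), Scd1 (0.91) and Thrsp (1.13) were all called. Without KO-labelled replicate 2 only that of Scd1 was (1.15). Each of these fits leaves 1 KO-labelled library, so the WT-labelled pair alone gives the spread.

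Thrsp in liver rested on 1 control library, with 138 and 121 CPM in the KO-labelled libraries and 22.4 and 88.4 CPM in the WT-labelled ones. Its log2 difference of 1.22 (SE 0.511, edgeR adjusted p = 0.267) was 0.54 without WT-labelled liver replicate 1 and 2.52 without replicate 2. The remaining 6 genes had log2 differences between −0.35 and 0.55, none called. Fasn was at 138 and 182 CPM in KO-labelled liver and at 149 and 145 CPM in WT-labelled liver, with a log2 difference of 0.12 (95% confidence interval −0.46 to 0.70). For Srebf1 (40.7 and 45.0 against 39.8 and 47.9 CPM) the interval was −0.59 to 0.52, for Elovl6 (17.3 and 17.2 against 16.0 and 18.3 CPM) −0.56 to 0.58, and for Mlxipl (63.5 and 56.3 against 54.3 and 50.2 CPM) −0.35 to 0.74. Acaca was at 44.8 and 32.8 against 46.0 and 52.8 CPM (log2 difference −0.35, adjusted p = 0.505), and Scd2, the scarcest of the 10 by FPKM (0.41 to 0.68), was at 3.41 and 3.50 against 2.46 and 2.26 CPM (log2 difference 0.55, adjusted p = 0.451). For Fasn, Srebf1, Elovl6 and Mlxipl the intervals thus exclude a 2-fold difference.

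**Figure D4:**
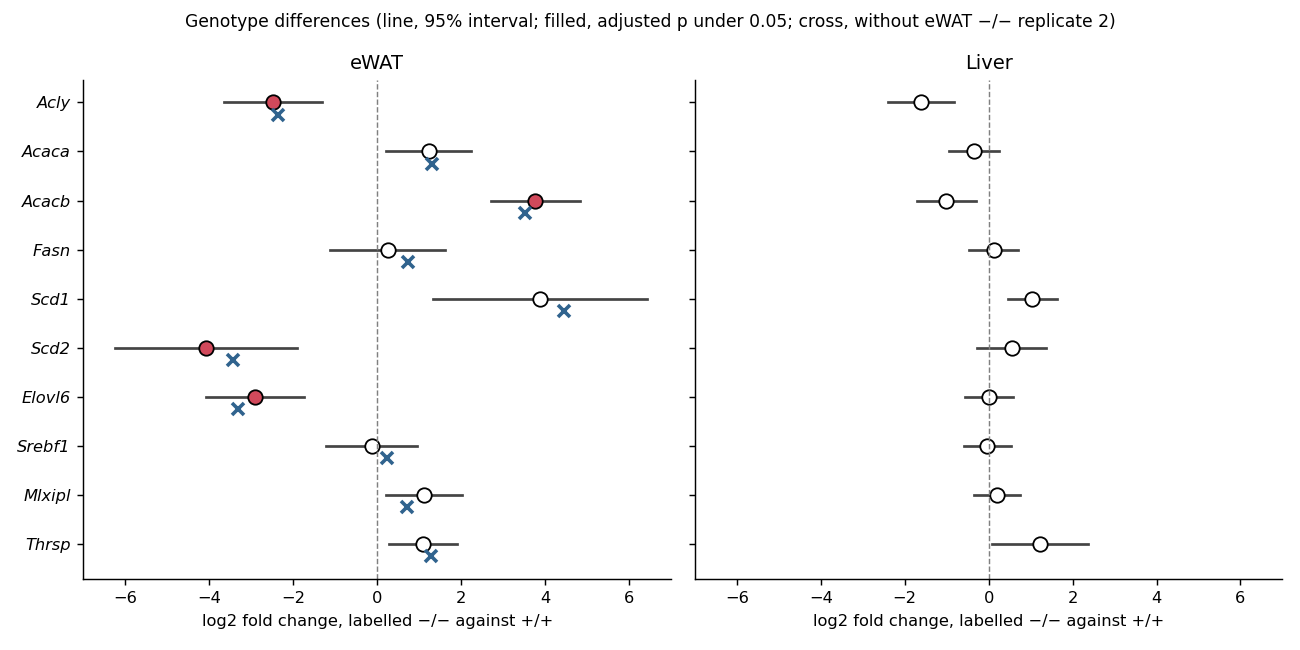
Log2 fold change of the 10 genes between libraries labelled −/− and +/+ in eWAT and in liver, with 95% intervals from edgeR, filled points for an adjusted p under 0.05, and crosses for the eWAT value without the −/− library rich in hepatocyte markers. Acly, Acacb, Scd2 and Elovl6 are filled in eWAT and none in liver.

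The difference between tissues in the genotype contrast was tested as an interaction over all 8 libraries. It was called for 3 of the 10 genes (6.94% of all genes). For Acacb the log2 interaction was 4.71 (SE 0.574, edgeR adjusted p = 0.0103), for Scd2 −4.77 (SE 0.869, adjusted p = 0.0253) and for Elovl6 −2.97 (SE 0.525, adjusted p = 0.0231). Under the KO label Acacb thus stood higher in eWAT and lower in liver (there not called), and Scd2 and Elovl6 lower in eWAT beside liver differences of 0.55 and 0.01. For Acly, which stood lower in both tissues, the interaction was −0.95 (95% confidence interval −2.44 to 0.54, adjusted p = 0.366), and for Fasn it was 0.00 (95% confidence interval −1.41 to 1.42). Leaving out WT-labelled liver replicate 1 or 2 ended all 3 calls (Acacb adjusted p = 0.0604 and 0.0519), Acacb alone remained called without either library of KO-labelled liver or without WT-labelled eWAT replicate 2, and Scd2 was also lost without WT-labelled eWAT replicate 1 (adjusted p = 0.0544).

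Between the tissues, Scd2 had the largest log2 difference of the 10 in the WT-labelled libraries, and Acacb in the KO-labelled ones. The levels here are FPKM, while the log2 differences are of TMM-scaled counts over all 8 libraries, a scale on which eWAT stands lower than in FPKM. Scd2 was at 137.46 and 205.58 FPKM in WT-labelled eWAT and at 0.46 and 0.41 FPKM in WT-labelled liver. With TMM it was 149-fold higher in eWAT (log2 7.22, SE 0.759, edgeR adjusted p = 0.000869), and the log2 value ranged from 6.13 to 8.61 under other methods and scalings. In the KO-labelled libraries it was at 14.55 and 2.76 FPKM in eWAT and 0.64 and 0.68 FPKM in liver, a log2 difference of 2.45 (adjusted p = 0.0279). With each library left out in turn the call under the WT label held (highest adjusted p = 0.0129), while that under the KO label was lost without either library of WT-labelled liver (0.0568 and 0.0564), either of KO-labelled liver (0.132 for both) or KO-labelled eWAT replicate 1 (0.0694). It was also lost with the replicate number as a block within genotype (log2 2.15, edgeR adjusted p = 0.0554). The methods of the study describe liver and eWAT from 2 mice of each genotype, but no source used here ties the replicate numbers to the animals. Of the 10 genes, 6 were called in the WT-labelled libraries (4 higher in eWAT, 2 lower), where 54.9% of all genes were (35% higher, 19.8% lower). In the KO-labelled libraries 4 were called (2 higher, 2 lower), where 27.8% of all genes were (18.9% higher, 8.89% lower). With library-size scaling the calls were 5 higher and 1 lower under the WT label (11826 genes in all, against 8552 with TMM). Under the KO label they were 6 higher and 0 lower (7127 in all, against 4330). Fasn, not called with TMM under either label, was at 45.7 and 45.38 FPKM in WT-labelled eWAT and at 15.02 and 14.43 FPKM in WT-labelled liver. Its log2 difference there was 0.23 with TMM and reached 1.63 under another setting. Under the KO label it was also 0.23 with TMM and reached 1.44.

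Mlxipl was higher in liver under both labels. It was at 16.22 and 14.87 FPKM in WT-labelled liver against 6.92 and 8.13 FPKM in eWAT, and at 19.24 and 17.44 against 11.12 and 14.30 FPKM in the KO-labelled libraries (log2 eWAT against liver −2.43, adjusted p = 0.0017, and −1.58, adjusted p = 0.0131). Srebf1 went the other way in FPKM, at 56.26 and 62.27 in WT-labelled eWAT against 9.63 to 11.31 over the 4 liver libraries (log2 1.10, edgeR adjusted p = 0.0261), and at 63.62 and 26.81 under the KO label, where the log2 difference of 0.90 was not called (adjusted p = 0.0766). Acly was higher in eWAT in the WT-labelled libraries (log2 1.83, adjusted p = 0.0155). With libraries left out, Mlxipl stayed called under the WT label (highest adjusted p = 0.0143) and was lost under the KO label without KO-labelled liver replicate 1 or 2 (0.0681 and 0.0505). Srebf1 was lost without any 1 of the WT-labelled libraries (adjusted p 0.0646 to 0.158) and was called under the KO label without KO-labelled eWAT replicate 2 (log2 1.21, adjusted p = 0.0162), and Acly was lost without WT-labelled eWAT replicate 2 (0.0763) or WT-labelled liver replicate 1 (0.105).

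Acacb and Elovl6 changed order with the label. Elovl6 was higher in eWAT than in liver in the WT-labelled libraries (16.28 and 28.81 against 2.72 and 3.07 FPKM, log2 1.56, edgeR adjusted p = 0.0126) and lower in the KO-labelled ones (2.09 and 2.69 against 2.99 and 3.05 FPKM, log2 −1.40, adjusted p = 0.0324). Acacb was at 41.03 and 43.22 FPKM in KO-labelled eWAT against 2.41 and 1.53 FPKM in liver (log2 3.32, adjusted p = 0.00231), and at 3.04 and 4.67 against 4.47 and 3.21 FPKM under the WT label, where its log2 difference of −1.39 (adjusted p = 0.0228) is against groups that overlap in FPKM. The call of Acacb under the KO label held with each library left out (highest adjusted p = 0.0267), but that under the WT label was lost without WT-labelled eWAT replicate 1 (0.121) or WT-labelled liver replicate 1 or 2 (0.125 and 0.0571), and with the replicate block (log2 −1.41, adjusted p = 0.0558). For Elovl6 the call under the WT label was lost without WT-labelled eWAT replicate 2 (0.0687) or either library of WT-labelled liver (0.0836 and 0.0624), and that under the KO label without any 1 liver library (0.0649 to 0.117) or KO-labelled eWAT replicate 1 (0.121). Part of this depended on scaling. TMM placed the median of all genes at 0.61 (Crtc1+/+) and 0.20 (Crtc1-/-), library-size scaling placed it at 2.0 and 1.33, and under the latter Acacb was at 0.01 in the WT-labelled libraries, while Elovl6 (−0.34) and Mlxipl (−0.51) were no longer called under the KO label. These contrasts share their libraries with the genotype comparisons, and those of the WT-labelled eWAT libraries carry the epididymis markers. Those of the KO-labelled eWAT libraries include replicate 2, with 10.2% of its counts in hepatocyte markers, so it shares markers with the liver it is compared with. Of the 13 hepatocyte markers, 13 were called lower in eWAT under the WT label (median log2 −7.1) and 0 under the KO label (median −2.9). The part of those markers in the KO-labelled values was not tested.

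**Figure D5:**
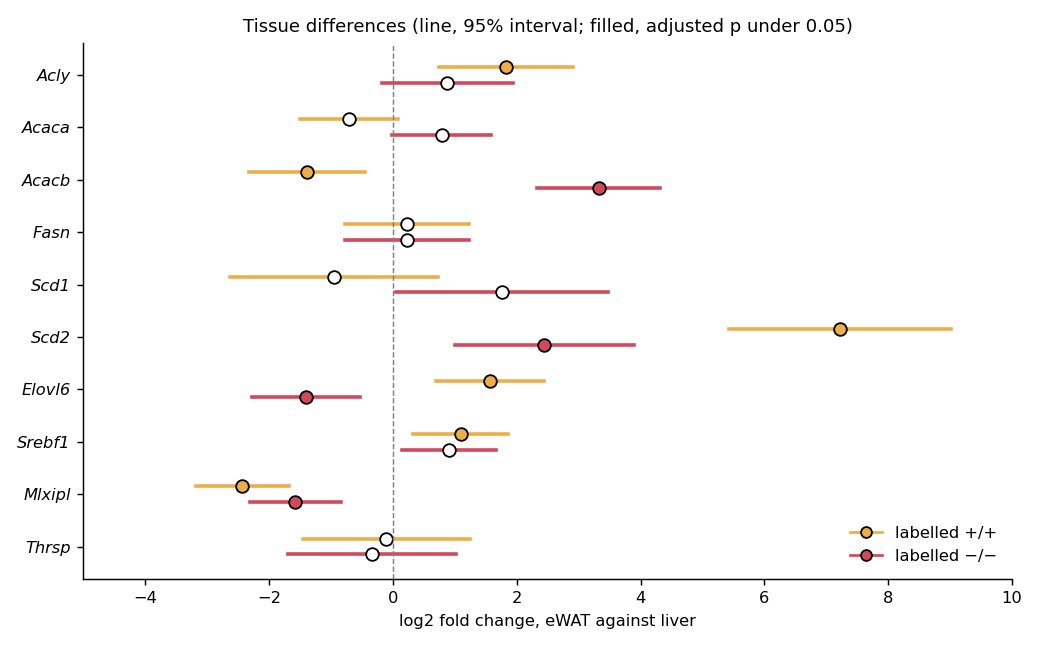
Log2 fold change of eWAT against liver for the 10 genes in the libraries labelled +/+ and labelled −/−, with 95% intervals from edgeR and filled points for an adjusted p under 0.05. Acacb and Elovl6 lie on opposite sides of 0 under the 2 labels, and Mlxipl lies below 0 under both.

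The other genes of the pathway were described by lists, whose counts of calls in eWAT stand against 6.65% of all genes called higher and 5.54% called lower. Their counts at an unadjusted p under 0.05 stand against 33.3% of all genes, and their DESeq2 counts against 4620 of 15391 genes. In eWAT, of 11 tested genes that supply precursors and NADPH, 1 was called higher and 0 lower. This was Pcx, the pyruvate carboxylase that replaces mitochondrial oxaloacetate, at 972 and 744 CPM against 98.7 and 108 CPM (log2 3.05, edgeR adjusted p = 0.0194). Without the library rich in hepatocyte markers Pgd, of the pentose phosphate pathway, was called as well (log2 1.77, edgeR adjusted p = 0.0198). The median log2 fold change of that list was 1.08, against −0.05 over all genes. Of 8 genes for sugar entry none was called by edgeR (1 at an unadjusted p under 0.05, 2 by DESeq2), and the list's median of 2.17 became −0.44 without the library rich in hepatocyte markers, when Slc2a4, the insulin-responsive glucose transporter, was called higher (log2 2.30, adjusted p = 0.0124). Of 6 genes of SREBP processing none was called either (2 at an unadjusted p under 0.05, 2 by DESeq2), with a median of −0.28.

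Among 15 partner factors and modulators, 3 were called higher and 1 lower in KO-labelled eWAT. Those higher were nuclear receptors, Pparg (254 and 188 against 14.5 and 24.1 CPM, log2 3.52, edgeR adjusted p = 0.0184), the factor that drives adipocyte differentiation, Nr1h3 (log2 3.41, adjusted p = 0.017), which encodes the oxysterol receptor LXRα, and Rxra (log2 2.32, adjusted p = 0.0251), the shared partner of both. Mid1ip1, a relative of Thrsp whose protein promotes the polymerization of acetyl-CoA carboxylase, was the one lower, at 71.1 and 34.0 CPM against 356 and 421 CPM (log2 −2.89, adjusted p = 0.0289). Thrsp and Mid1ip1 thus stood on opposite sides of 0.

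Of 5 further targets of ChREBP or SREBP-1c, 2 were called higher in eWAT. Txnip, which restrains glucose uptake, was at 1590 and 2250 CPM against 330 and 332 CPM (log2 2.53, edgeR adjusted p = 0.0307), and Gpd1, which makes glycerol 3-phosphate, at 1310 and 748 CPM against 197 and 204 CPM (log2 2.36, adjusted p = 0.0367). Pnpla3 was called higher without the library rich in hepatocyte markers (log2 2.93, adjusted p = 0.0258). Mlycd, whose enzyme removes malonyl-CoA, was the 1 of 3 genes of its list called (96.6 and 136 against 25.4 and 20 CPM, log2 2.36, adjusted p = 0.023). Of 6 tested genes of mitochondrial fatty acid synthesis, a separate pathway that makes lipoate precursors, Mecr (log2 2.14, adjusted p = 0.0309) and Acsf3 (log2 1.55, adjusted p = 0.0452) were called higher, and the call of Acsf3 was lost without the library rich in hepatocyte markers (log2 1.40, adjusted p = 0.0977). Of 11 tested elongase and desaturase genes besides the members, 1 was called lower and 0 higher, with a median of −1.47. This was Elovl4, which makes very long chains, at 13.3 and 29.7 CPM in WT-labelled eWAT and at 1 and 0 counts in KO-labelled eWAT, at least 115-fold lower against a floor of 3 counts per library. Without the library rich in hepatocyte markers Elovl2 (log2 −3.34, against 1.65 with it), Fads1 (−1.81) and Fads2 (−2.67) were called lower beside Elovl4. That fit has 1 KO-labelled library, so the WT-labelled pair alone gives the spread. These lists moved with the same marker shares as the members, and under scaling on adipocyte markers each of the 9 higher genes named from the lists (Pcx, Pparg, Nr1h3, Rxra, Txnip, Gpd1, Mlycd, Mecr and Acsf3) turned to a negative value, between −2.08 and −0.10, above the median of all genes at −3.72. That median was −0.05 with TMM, so the turns follow the shift of all genes and do not single out these 9.

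In liver the same 8 lists held 1 called gene. It was Elovl3, an elongase of long saturated chains, at 1.62 and 0.292 CPM in KO-labelled liver and at 17.5 and 18.8 CPM in WT-labelled liver, 18.5-fold lower (log2 −4.21, SE 0.548, edgeR adjusted p = 0.0418). Leaving out WT-labelled liver replicate 1 or 2 lost the call, with the log2 fold change at −4.28 and −4.17. Leaving out KO-labelled liver replicate 1 or 2 put the log2 fold change at −5.92 and −3.49.

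Across the 8 libraries the pattern of Fasn was most like that of Ppp1r1b (Pearson r of log2 CPM 0.934), followed by Cops7b (0.817) and Dnajb5 (0.756), among 7755 genes compared. With its fellow enzymes the r of Fasn was 0.0772 for Acly, −0.0688 for Acaca, −0.0504 for Acacb, 0.289 for Scd1, 0.386 for Scd2 and −0.178 for Elovl6. With the regulators the r of Fasn was 0.587 for Srebf1, −0.436 for Mlxipl and 0.11 for Thrsp. The strongest pairs among the lipogenic genes were Srebf1 with Mlxipl (−0.964), Scd2 with Mlxipl (−0.951) and Srebf1 with Scd2 (0.896). Between enzymes, Acaca and Acacb had an r of 0.875, Acaca and Scd1 0.805, and Acly and Scd2 0.786. Elovl6 had −0.859 with Scd1 and −0.815 with Acacb. The 8 points share 2 tissues and 4 groups, so these values describe the libraries and carry no test. The values also depend on the scaling between tissues. With TMM over 8 libraries Fasn differed by log2 0.23 between tissues under the WT label. Its FPKM was 45.7 and 45.38 in WT-labelled eWAT and 15.02 and 14.43 in WT-labelled liver. Correlations of FPKM were not computed.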

How the data were processed

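Total RNA of 8 libraries (4 groups of 2, grouped by the sample titles) was sequenced at BGI. The authors deposited estimated counts per gene, not normalized, and FPKM, scaled by transcript length and library total. The submitters' processing notes name HISAT, Bowtie2 and the build GRCm38.p6; their roles, the counting tool and the annotation are not given in the sources used here. Between 5.44% and 9.98% of the deposited count values of a library were not whole, so genes that share reads depend on how they were divided, and counts were rounded. Library totals were 16560085 to 19721481, at which 3 counts are 0.152 to 0.181 CPM. Each group rests on 2 libraries.

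Genes were filtered (filterByExpr), scaled by TMM and tested with edgeR 4.0.16 (R 4.3.3, quasi-likelihood, rounded counts, Benjamini-Hochberg adjustment over all genes, threshold 0.05). Genotypes were compared within a tissue, and tissues and the interaction in 1 fit of 8 libraries. The study's threshold (absolute log2 fold change over 1 with p under 0.01) was an alternative, with DESeq2 1.42.0, limma 3.58.1 on quantile-normalized log2(FPKM + 1) and log2(FPKM + 0.1), other scalings, no filter, left-out libraries and a replicate block. The list values without 1 eWAT library were added after seeing the data. Correlations used log2 CPM with a prior count of 2.

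The 10 genes and the lists were chosen with earlier results of these data known. Named were the 10, Crtc1, up to 4 called genes of each list by size, the 5 genes most like Fasn (mean log2 CPM 3 or more; the first 3 are reported here), and leading markers. Fibroblast markers (5 genes) took between 0.135% and 0.493% of the counts in eWAT, macrophage markers (7 genes) between 0.0157% and 0.103%, and the 3 brown adipocyte markers at most 0.000854%. The methods of the study describe liver and eWAT from 2 mice of each genotype, but replicate numbers were not taken to pair libraries, since the labels do not say what they mark. Coordinates are from GENCODE M21 (GRCm38), promoters from RefSeq (GRCm38.p6), and figures from matplotlib 3.10.9.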

Additional observations from a re-analysis of the deposited data

Results flagged for a closer look

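Acacb, Scd2 and Elovl6 differed between eWAT and liver in their response to the Crtc1-/- label, by the interaction term of edgeR over 8 libraries. The log2 interaction was 4.71 for Acacb (adjusted p = 0.0103, edgeR), which stood higher in both eWAT libraries labelled Crtc1-/- and lower in both liver libraries so labelled. For Scd2 it was −4.77 (adjusted p = 0.0253) and for Elovl6 −2.97 (adjusted p = 0.0231), each lower in 2 of 2 eWAT libraries. In eWAT the label moved together with the epididymis and adipocyte markers, and their part in these interactions was not tested.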

How the results depend on the processing

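The lowest count of any of the 10 genes in a library was 43 (Scd2, liver), above the floor of 3. In eWAT the 4 calls among the 10 genes became 8 with DESeq2 (4620 genes in all against 1875), 7 with all 8 libraries in 1 fit (3861 in all), 8 under scaling on adipocyte markers (13713 in all), and 0 to 5 with a library left out. With the replicate number as a block 0 of the 10 and 0 of all genes were called in eWAT, the smallest adjusted p being 0.0543 (Acacb and Elovl6), while in liver 0 of the 10 were called with the replicate block (82 genes in all against 10). Same-numbered libraries had correlated deviations of 0.0086 between the eWAT groups, 0.0516 between the liver groups, and 0.152 (Crtc1+/+) and 0.0356 (Crtc1-/-) between the tissues. These values cannot show whether same-numbered libraries share a mouse, since tissues of 1 mouse need not share deviations. The numbers were not read as pairs because the labels do not say what they mark. The block within genotype left 5 calls between tissues under the Crtc1+/+ label (Acacb lost), 3 under the Crtc1-/- label (Scd2 lost) and 3 interactions. In liver the 0 calls became 2 with DESeq2 (311 in all), 1 with no filter on low counts (301 in all), 3 under the study's threshold (500 in all) and 0 to 4 with a library left out. The interaction calls were 5 with DESeq2 (2056 in all against 1081) and 0 to 4 with a library left out. Between tissues the calls with a library left out were 2 to 7 (labelled Crtc1+/+, 6 otherwise) and 1 to 6 (labelled Crtc1-/-, 4 otherwise). The cause was not tested.

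Apart from scaling on adipocyte markers, signs turned mostly for genes near 0. Under that scaling they also turned in eWAT for genes far from 0, such as Pparg at 3.52. In eWAT, Fasn was −0.24 and −0.25 with limma at pseudocounts of 1 and 0.1, −0.01 with library-size scaling and −0.58 without Crtc1-/- replicate 1, and Srebf1 was 0.01 without Crtc1+/+ replicate 2 and 0.24 without Crtc1-/- replicate 2; with a library left out they ranged from −0.58 to 0.74 and from −0.69 to 0.24. Under scaling on adipocyte markers (median of all genes −3.72), the values were Acaca −2.34, Fasn −3.58, Mlxipl −2.43, Thrsp −2.63, Mlycd −1.27, Mecr −1.61, Acsf3 −2.08, Txnip −1.05, Gpd1 −1.39, Pparg −0.10, Nr1h3 −0.29, Rxra −1.29 and Pcx −0.64.

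In liver, Srebf1 was 0.07 and 0.08 with limma, 0.05 with upper-quartile scaling, 0.02 with library-size scaling, 0.10 without Crtc1+/+ replicate 2 and 0.05 without Crtc1-/- replicate 1. Elovl6 was −0.01 without the filter and −0.10 without Crtc1+/+ replicate 1, and Fasn −0.10 without Crtc1-/- replicate 2. With a library left out the ranges were −0.17 to 0.10 (Srebf1), −0.10 to 0.10 (Elovl6) and −0.10 to 0.32 (Fasn). Between tissues under the Crtc1+/+ label, Thrsp was 1.21 and 1.22 with limma, 0.09 with upper-quartile scaling, 1.30 with library-size scaling, 0.20 with the replicate block and 1.19 without liver replicate 2 (−0.80 to 1.19 with a library left out), and library-size scaling gave Acaca 0.69, Acacb 0.01 and Scd1 0.45. Under the Crtc1-/- label Thrsp was 0.48 with limma at both pseudocounts and 0.82 with library-size scaling, and Fasn −0.45 without eWAT replicate 1 (−0.45 to 0.68 with a library left out). The interaction turned for Thrsp without liver Crtc1+/+ replicate 1 (0.46) and without eWAT Crtc1-/- replicate 2 (0.08), and for Srebf1 without the latter (0.29), with ranges of −1.53 to 0.46 and −0.62 to 0.29.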
